A study of Drosophila melanogaster with 36 samples.

Results

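Binding of Homothorax (Hth) expressed without a Hox protein was compared here with binding of the Hox protein Ultrabithorax (Ubx) expressed without Hth, as lists of bound regions. The members were the 8998 regions of the Hth line and the 5278 regions of the Ubx line at MACS q 1e-2, 14276 of the 112270 regions that the 12 stable lines hold together at this threshold. The q value is the false discovery rate at which the peak caller accepts a region. At q 1e-10 the same lines had 6225 and 1832 regions, of 64006. A region was called shared when it overlapped a region of the other line by 1 bp or more, and private otherwise.

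Both lines were made in Kc167, a Drosophila cell line that resembles hemocytes (blood cells). By the study's account these cells have no Hth and do express Extradenticle (Exd), which stays in the cytoplasm without Hth. The Hth line carried pMT-puro-Hth-eGFP and the Ubx line pMT-puro-eGFP-Ubx, each under the copper-inducible metallothionein promoter and selected with puromycin. Both were given 1 mM CuSO4 for 18 h, sorted by FACS within the same range of eGFP fluorescence, and precipitated with an anti-GFP antibody, with 2 ChIP libraries and 1 input library per line. Another line under the same induction, Ubx+Hth, carried pMT-puro-Hth-2A-eGFP-Ubx, so that its 4885 regions are those of the tagged Ubx in cells that also make Hth. The labels do not say whether the biological replicates were separate cultures, and no expression values were analysed here, so the cell type was not checked against its markers.

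Hth and Exd are homeodomain proteins of the TALE class, named for an extra loop in the homeodomain, and are the relatives of vertebrate Meis and Pbx. Hth binds Exd, carries it into the nucleus and joins it in complexes with Hox proteins on DNA. Proteins of the Hth and Meis family prefer the core TGACAG. Ubx specifies the haltere and other structures of the posterior thorax and anterior abdomen, and its homeodomain prefers cores with TAAT. Exd with a Hox protein binds longer sites that start with TGAT, and Exd beside Hth can bind a composite of TGAT and TGACAG.

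Stretches of 30 bases from named regions show these sites in their context. The first set is the most central Hth core in the widest Hth regions at q 1e-10 that had no Ubx region even at q 1e-2. Capitals mark TGACAG. The first of these lies in an intron of elB, a zinc finger gene. Its region of 2600 bp held 8 Hth cores and also 8 Hox cores (TAATTA or TAATGA). The next is in a neighboring intronic region of elB, and the last in an intron of Sulf1, which encodes an extracellular heparan sulfate sulfatase. In the order printed, the matches lay 40, 80 and 670 bp from the region center. That of Sulf1 is thus outside the central 200 bp in which motifs were counted.
elB, chr2L:14400323-14400352, minus strand: attcaattcactTGACAGcaatgacagaca
elB, chr2L:14402858-14402887, plus strand: aagtaaaaactcTGACAGtgtctttaattc
Sulf1, chr3R:16321201-16321230, minus strand: tgtcacaatcacTGACAGttgcaaaaatgt

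The second set is the Hox core in the widest Ubx regions at q 1e-10 that had no Hth region at q 1e-2. Capitals mark TAATTA. These regions were narrow, 560 bp at CG11658 and 465 bp at Scsalpha1, which encodes a subunit of succinyl-CoA synthetase, and held 1 Hox core and no Hth core each. The matches lay 167 and 172 bp from the center, outside the central 200 bp in which motifs were counted.
CG11658, chr3L:11708369-11708398, plus strand: ccccctaagctcTAATTAcgcactttgcaa
Scsalpha1, chr3L:3814244-3814273, plus strand: ttcgcactgcatTAATTAaacgcgttttaa

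The last set is the composite of an Exd and a Hth site, TGAT joined to TGACAG, in capitals, from the widest regions that held it. The first pair comes from Hth-private regions and the second pair from regions shared with Ubx. In the order printed, the matches lay 252, 240, 1056 and 86 bp from the center. Those of SKIP, nebu and CG9674 are thus outside the central window in which the composite was counted. All of them lie in introns, those of SKIP, nebu, CG9674 and kirre. The last of these encodes a cell adhesion protein of myoblast fusion.
SKIP, chr3R:22197150-22197179, minus strand: cttagccccgTGATTGACAGacagccgtct
nebu, chr3L:12836517-12836546, plus strand: caaaaactttTGATTGACAGcttgtagagc
CG9674, chr3L:16800663-16800692, plus strand: atcgtgcaatTGATTGACAGtgtggttgaa
kirre, chrX:3059607-3059636, minus strand: tgtctaaattTGATTGACAGctgctcaaga

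At q 1e-2 most Ubx regions overlapped the longer Hth list. Of the 5278 Ubx regions, 4816 overlapped a Hth region (91.2%, 95% exact binomial interval 90.5 to 92.0%) and 462 were Ubx-private (8.75%). Of the 8998 Hth regions, 4309 overlapped a Ubx region (47.9%, 46.9 to 48.9%) and 4689 were Hth-private (52.1%). The gap between these shares was smaller with lists of equal length or regions of equal width. With only the 5278 widest Hth regions, as many as the Ubx list holds, 75.9% of Ubx regions and 65.8% of those Hth regions were shared. With every region reduced to 400 bp on its center, the shares were 76.2 and 44.1%. By bases, 90.5% of the Ubx regions and 41.2% of the Hth regions lay in the other line's regions. The shared share varied little over the chromosome arms, from 45.8 to 49.6% of Hth regions and from 89.8 to 92.0% of Ubx regions on 2L, 2R, 3L, 3R and X. The intervals cover the counting of regions only. They hold no replicate error, since each line is a single merged list.

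**Figure D1:**
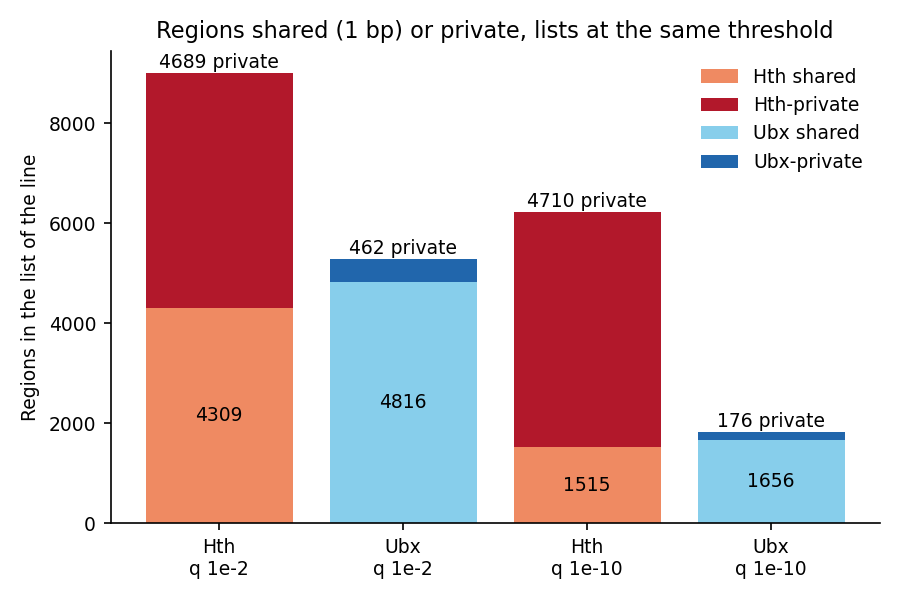
Bars give the number of regions in each line's list at q 1e-2 and at q 1e-10, split into those shared with the other line at the same threshold and those private to the line. Ubx-private regions number 462 and 176, and Hth-private regions 4689 and 4710.

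The regions of both lines met at close positions. In 3727 cases a single Hth region paired with a single Ubx region, and the median distance between their centers was 71.5 bp, with 60.8% of pairs within 100 bp. The Hth region was the wider in 86.7% of pairs, by a median of 228 bp. A further 490 Hth regions spanned 2 or more Ubx regions, while 57 Ubx regions spanned 2 or more Hth regions. Private regions were not the edges of shared ones in most cases. The median gap from a Hth-private region to the nearest Ubx region was 3950 bp, and 977 (20.8%) lay within 1000 bp of one. For Ubx-private regions the median gap was 2688.5 bp, with 135 (29.2%) within 1000 bp.

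Ubx-private regions were the weak end of the Ubx list. Only 32 of the 462 (6.93%, 4.79 to 9.64%) held a q 1e-10 region, against 34.8% of the Ubx regions shared with Hth. Hth-private regions held one in 2203 of 4689 cases (47.0%, 45.5 to 48.4%), against 81.0% of the shared Hth regions. The stricter test therefore left 2486 Hth regions at q 1e-10 that had no Ubx region even at q 1e-2 (39.9%), and 33 such Ubx regions (1.80%). With both lists at q 1e-10, 1515 of 6225 Hth regions (24.3%) and 1656 of 1832 Ubx regions (90.4%) were shared. The lists hold no read depth. The study's own read overview gives the Hth libraries more mapped reads than the Ubx libraries, and the part of depth in the longer Hth list was not tested.

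Wide regions were shared more often than narrow ones in both lines. Among Hth regions the shared share was 18.1% in the narrowest quartile (255 to 445 bp), 32.9% and 56.0% in the middle quartiles, and 84.4% in the widest (1008 to 7109 bp). Among Ubx regions it was 77.8, 90.9, 96.6 and 99.7% over the same quartiles of their own list, and 4 of the 1323 widest Ubx regions lacked a Hth region. Median widths were 492 bp for Hth-private, 917 bp for shared Hth, 553.5 bp for shared Ubx and 370.5 bp for Ubx-private regions.

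**Figure D2:**
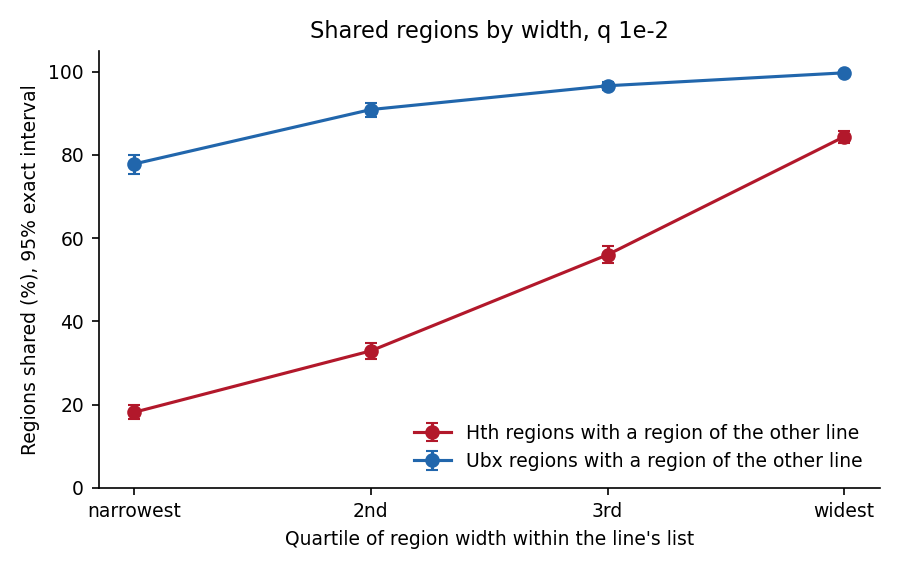
Points give the percent of regions shared with the other line in each quartile of region width, with 95% exact intervals, for the Hth and the Ubx list at q 1e-2. The Hth points run from 18.1 to 84.4% and the Ubx points from 77.8 to 99.7%.

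The widest regions of each kind were in or beside named genes. The 5 widest Hth regions at q 1e-10 with no Ubx region were all intronic. In Release 6 (dm6) positions they were the pair in elB at chr2L:14399078-14401677 (2600 bp) and chr2L:14401885-14404019 (2135 bp), and those in px at chr2R:22545261-22547063 (1803 bp), a wing vein gene, in Sply at chr2R:17090427-17092187 (1761 bp), which encodes sphingosine-1-phosphate lyase, and in Sulf1 at chr3R:16319690-16321400 (1711 bp). All 5 were also bound by Ubx in the Ubx+Hth line, as were 733 of all 2486 Hth regions of this kind (29.5%). Those in px, Sply and Sulf1 were bound as well in the Ubx+Gcm line, which makes Ubx with the transcription factor Gcm and without Hth. The pair in elB was not bound there. The Ubx+Gcm list held 1169 of the 2486 regions (47.0%). The 5 widest of the corresponding Ubx regions were those in introns of CG11658 (chr3L:11707937-11708496) and Scsalpha1 (chr3L:3814199-3814663), in the 5′ UTR of Hcf (chr4:359861-360310, 450 bp), a chromatin factor gene, in an intron of Gyg (chr2R:21203984-21204378, 395 bp), which encodes glycogenin, and between genes 84 bp from prod (chr2R:18971034-18971399, 366 bp). None of these 5 held a Hth core, and those at Hcf and prod held no Hox core either. Of the 5 Hth regions, the one in Sply held no Hth core. The 5 widest Hth regions shared at q 1e-10 spanned 4007 to 4899 bp, and 2 of them lay in introns of Tis11, an mRNA decay gene, and shn, a zinc finger gene of Dpp signaling. These 5 were bound in all 10 other lines.

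Most Hth-private regions had no region in the list of the Ubx+Hth line. In the Ubx+Hth line 960 of 4689 Hth-private regions were bound by the tagged Ubx (20.5%, 19.3 to 21.7%), from 16.4 to 24.3% by arm. Of the shared Hth regions 2937 were bound there (68.2%, 66.7 to 69.5%). Shared Ubx regions, all bound by Ubx alone, were in the Ubx+Hth list in 3247 of 4816 cases (67.4%, 66.1 to 68.7%). A region missing from this list may therefore be one that Ubx binds in the Ubx line. Of the Ubx-private regions 85 were bound there (18.4%, 15.0 to 22.2%), so that 377 regions bound by Ubx alone had no region in the Ubx+Hth line. Strength moved with these shares. Hth-private regions with a q 1e-10 region were bound in Ubx+Hth in 29.2% of cases and the others in 12.7%. The same shares were 78.1% (25 of 32) and 14.0% (60 of 430) for Ubx-private regions. The 4885 regions of the Ubx+Hth line overlapped regions of both lines in 65.6% of cases, of Hth alone in 22.3% (1090), of Ubx alone in 1.68% (82) and of neither in 10.4% (510).

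Hth-private regions that Ubx occupied in the presence of Hth held more Exd-Hox sites. An octamer of the kind TGATTGAT, TGATTAAT or TGATTTAT, searched on both strands of the central 200 bp, was present in 116 of these 960 regions (12.1%, 10.1 to 14.3%) and in 158 of the 3729 other Hth-private regions (4.24%, 3.61 to 4.93%). The windows 1000 bp to either side held one in 6.46 and 3.81%. The share was higher in the regions bound in Ubx+Hth on 5 of 5 arms, for each octamer by itself and for the octamers together. TGATTTAT stood farthest apart, in 52 regions (5.42%) against 38 (1.02%). TGATTAAT was in 2.92 and 1.13%, and TGATTGAT in 4.27 and 2.23%. The GATA word AGATAA was also more frequent in the regions bound in Ubx+Hth (20.7 against 13.8%), and so was the Hox core (23.4 against 18.6%). The Hth core itself was not, with 17.1% (14.8 to 19.6%) against 21.1% (19.8 to 22.5%). Among Ubx-private regions the octamers were in 5 of 85 and 16 of 377, with intervals that overlap.

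Most Hth-private regions were also bound by Abd-B, and fewer of them by Dfd. Abd-B alone bound 73.0% of the Hth-private regions, Dfd alone 40.8%, and either of these 76.5%. Gcm alone, a transcription factor of glia and hemocytes, bound 24.5%. For shared Hth regions the same shares were 98.1, 89.2, 98.7 and 59.1%, and over all Hth regions 85.0, 64.0, 87.1 and 41.1%. Ubx-private regions were nearly all bound by Abd-B (96.5%) and by Ubx in the Ubx+Gcm line (94.8%), while Dfd bound 76.0% and Gcm alone 20.3%. A Hth-private region was bound in a median of 4 of the 10 other lines, a Ubx-private region in 7 and a shared region in 9. Hth-private regions with no other line numbered 583 (12.4%), against 3 Ubx-private regions (0.649%). The other lines were induced with 0.5 to 3.7 mM CuSO4 for 18 to 24 h and their lists differ in length, so these shares cannot be set against each other as strengths of binding.

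Ubx reached more Hth-private regions with Gcm than with Hth. The Ubx+Gcm list overlapped 1947 of them (41.5%, 40.1 to 42.9%) and the Ubx+Hth list 960 (20.5%). As a share of each line's own list, Hth-private regions met 22.3% of the 8827 Ubx+Gcm regions and 19.9% of the 4885 Ubx+Hth regions. Copper was 2.5 mM for 24 h in Ubx+Gcm and 1 mM for 18 h in Ubx+Hth, so that list length, induction and cofactor cannot be told apart. In 4 pairs of other lines that differed in Hth, the share of Ubx-private regions was the smaller with Hth, and least so for Abd-B. Abd-B bound 96.5% of them alone and 92.2% with Hth. Dfd bound 76.0% of them alone and 61.3% with Hth, Dfd+Gcm 71.0% against 50.6% for Dfd+Hth+Gcm, and Ubx+Gcm 94.8% against 68.4% for Ubx+Hth+Gcm. Shared Ubx regions also had the smaller share with Hth in each of these pairs. It was 98.0 and 94.3% for Abd-B, 87.4 and 85.6% for Dfd, 79.7 and 76.8% for Dfd+Gcm, and 92.7 and 87.9% for Ubx+Gcm. The same pairs bound 3422 and 3110, 1912 and 2065, 1646 and 1648, and 1947 and 1768 of the Hth-private regions, so that these shares were also the smaller with Hth for Abd-B and for Ubx+Gcm. Of these pairs only the last had the same induction, 2.5 mM CuSO4 for 24 h.

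**Figure D3:**
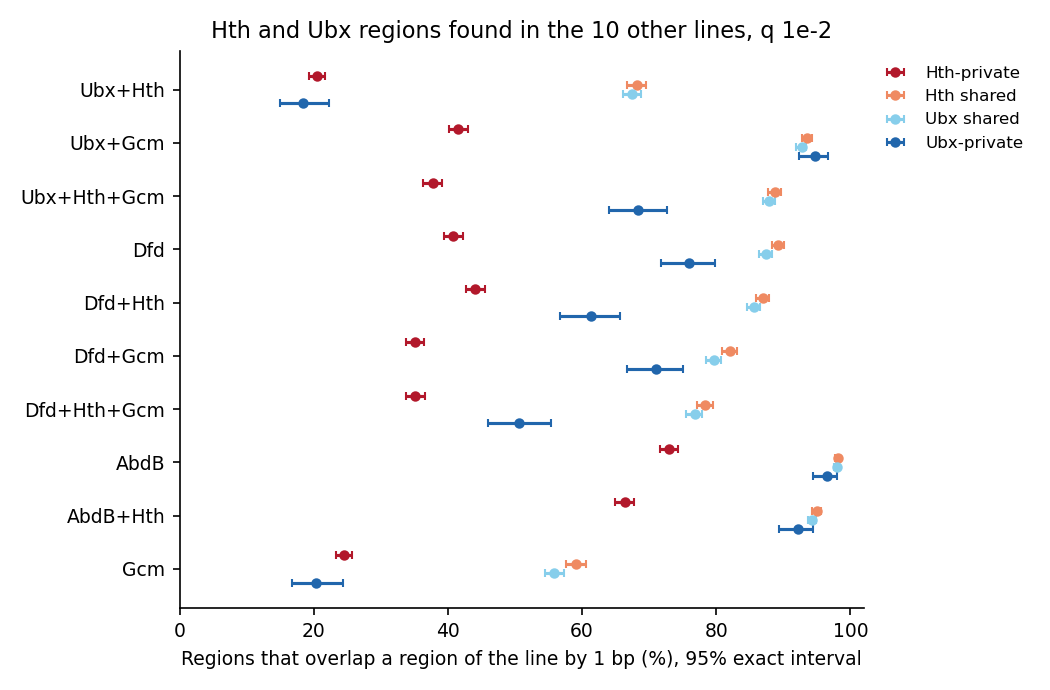
Points give the percent of each class of Hth and Ubx regions that overlap a region of each of the 10 other lines by 1 bp, with 95% exact intervals. Ubx-private regions sit beside Hth-private regions in Ubx+Hth (18.4 and 20.5%) and in Gcm, and beside the shared regions in AbdB and Ubx+Gcm.

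Ubx-private regions lay closer to transcript starts. The center was within 500 bp of an annotated start in 62.6% of Ubx-private regions (58.0 to 67.0%) and in 44.2% of Hth-private regions (42.8 to 45.7%), with 54.2% of shared Hth regions between them. Of all 200 bp tiles of the genome 13.2% were that close. The Ubx-private share was the higher on each of the 5 arms, with 58.1 to 66.0% against 41.9 to 47.9%. The difference, Hth-private minus Ubx-private, was -18.3 points (-23.0 to -13.5). For regions private at q 1e-10 with no region of the other line at q 1e-2 it was -18.1 points. That interval, -34.7 to 0.484, included 0, with 33 Ubx regions. Median distances to a start were 148.5 bp for Ubx-private and 771 bp for Hth-private regions. By feature at the center, 46.1% of Ubx-private regions were intergenic and 26.8% intronic, while Hth-private regions were 25.1% intergenic and 45.5% intronic. Coding exons held the center of 5.18% of Hth-private (4.57 to 5.86%), 2.65% of shared Hth and 1.95% of Ubx-private regions, where tiles give 17.0%. Regions over exons on a line's own plasmid had been removed, and no region of either line overlapped a coding exon of hth or Ubx.

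Among the motifs searched, the Hth core had the largest difference between Hth-private and Ubx-private regions. TGACAG, on either strand of the central 200 bp, was present in 951 of 4689 Hth-private regions (20.3%, 19.1 to 21.5%) and in 13 of 462 Ubx-private regions (2.81%, 1.51 to 4.76%). The flanking windows held it in 6.56 and 5.84%, and all 200 bp tiles in 7.50%. Shared regions were near this background, with 7.52% of Hth regions (flanks 5.77%) and 7.10% of Ubx regions (flanks 6.35%). Hth-private regions had the higher share on 5 of 5 arms against both Ubx-private and shared Hth regions. The regions private at q 1e-10 with no region of the other line at q 1e-2 gave 25.3% for Hth and 0 of 33 for Ubx, with an exact interval of up to 10.6%.

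The share with a Hth core varied with region width, strength and position. In Hth-private regions the Hth core was in 21.4% of regions under 400 bp and in 14.6% of those of 1000 bp or more, and in shared Hth regions in 6.52 and 7.12%, so that the gap was narrower among wide regions. Ubx-private regions under 400 bp had it in 2.67% of cases. Hth-private regions with a q 1e-10 region had it in 23.1% of cases and the others in 17.8%, where shared Hth regions had 8.17 and 4.76%. Within 500 bp of a transcript start the shares were 17.8% for Hth-private and 2.42% for Ubx-private regions, and farther away 22.2 and 3.47%. Matches gathered at the region center. In the 50 bp bins beside the center of Hth-private regions there were 7.29 and 7.40 matches per 100 regions, against 1.62 and 1.34 in bins 375 bp away. Shared Hth regions had 2.44 and 2.51 in the central bins, and Ubx-private regions 0.866 and 0.433.

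**Figure D4:**
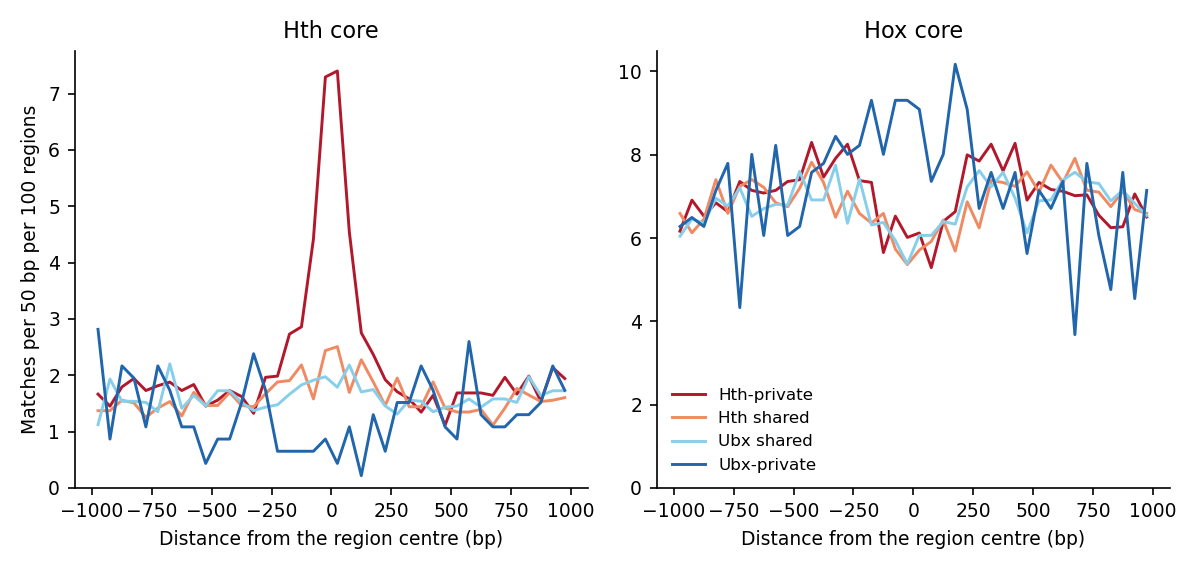
Lines give matches of the Hth core and of the Hox core per 50 bp bin and 100 regions, by distance from the region center, for the 4 classes at q 1e-2. The Hth core of Hth-private regions reaches 7.40 in the bin beside the center, and that of shared Hth regions 2.51.

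The Hth core was most frequent where no other line bound. It was present in 31.7% (28.0 to 35.7%) of the 583 Hth-private regions with no region in any of the 10 other lines, in 22.5% of those with 1 to 3 lines, in 16.9% with 4 to 7 and in 15.2% (12.8 to 17.9%) with 8 or more. The Hox core went the other way, from 13.7% (11.0 to 16.8%) and 13.2% to 22.5% and 29.8% (26.6 to 33.1%). GATA words changed less, from 12.5 to 16.5%. In shared Hth regions the Hth core was in 7.82% of the 3310 regions with 8 or more other lines.

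The composite of TGAT directly followed by TGACAG, which contains the Hth core, was rare. It was in 17 Hth-private regions (0.363%, 0.211 to 0.580%, with flanks at 0.0533%) and in 6 shared Hth regions (0.139%). None of 462 Ubx-private regions held it, with an exact interval of up to 0.795%. Of the Exd-Hox octamers, TGATTGAT was in 2.64% of Hth-private regions (2.20 to 3.14%), 2.19 times its share in the flanks, and in 0.951% of shared Hth regions, higher in the first on 5 of 5 arms. TGATTAAT and TGATTTAT differed little between those classes, with 1.49 and 1.81% for the first and 1.92 and 2.02% for the second.

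In the central 200 bp, Ubx-private regions had more Hox cores and more A and T. The Hox core, TAATTA or TAATGA on either strand, was in 27.7% of Ubx-private (23.7 to 32.0%; flanks 20.7%) and 19.6% of Hth-private regions (18.5 to 20.8%; flanks 22.2%), the higher in Ubx-private regions on 5 of 5 arms. The difference, Hth-private minus Ubx-private, was -8.09 points (-12.6 to -3.88). Its interval included 0 when whole regions were searched, at -2.01 points (-6.89 to 2.85), and for regions private at q 1e-10 with no region of the other line at q 1e-2, at -14.6 points (-33.2 to 0.826). Abd-B type words, which are TTTAT with TA, TG, GA or GG after it, were in 32.7% (28.4 to 37.2%) and 20.7%, also on 5 of 5 arms. In shared regions neither stood above the flanks by over 1 percentage point. Base composition moved with these shares. The central 200 bp of Ubx-private regions had a mean GC content of 39.9 ± 6.96% (SD over 462 regions) and a difference from their flanks of -4.24 points. For Hth-private regions these were 42.8 ± 7.36% (SD over 4689 regions) and -0.285 points. In windows under 38% GC the Hox core was in 39.8% (32.8 to 47.1%) of Ubx-private and 30.7% (28.1 to 33.4%) of Hth-private regions. In windows of 38 to 44% the shares were 19.0 and 19.8%, so there the order was lost. Over 44% they were 19.4 and 13.0%. The Hth core kept its order in all 3 classes of GC, with 17.8 to 21.6% of Hth-private and 2.04 to 4.84% of Ubx-private regions.

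Every hexamer was also counted. Of the 2080 hexamers, a word and its reverse complement counted as 1, TGACAG had the largest excess of Hth-private over Ubx-private regions, 17.5 percentage points, and the largest excess of Hth-private regions over their flanks, 13.7 points. TTGACA came next with 14.9 points, and GACAGC followed with 13.3 points. The other 3 of the 6 leading hexamers, CTGACA, then TGACAT with 11.7 and GTGACA with 11.1 points, share its stretch TGACA. The leading differences in the other direction were larger in size. TTAAAA was in 44.8% of Ubx-private against 25.1% of Hth-private regions (-19.7 points), and TAAAAA in 49.4 against 30.9% (-18.5 points). The other 4 of the 6 lowest, AATTAA with -17.5, AAATTA with -15.3, ATAAAA with -14.9 and ATTTTA with -14.0 points, were also made of A and T only. TAATTA ranked 2034 and TAATGA 1720 in this order. Over its own flanks the Ubx-private class was led by AAAATA (49.6 against 27.7%), with TAATTA at rank 83.

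Other words marked the classes too. GAGAGAG, the word of GAGA factor, was in 10.6% of shared Hth and 11.7% of shared Ubx regions, against 5.95% of Hth-private (5.29 to 6.67%) and 3.68% of Ubx-private regions (2.16 to 5.83%), lower in each private class than in its shared class on 5 of 5 arms. GGTCACACT, the word of the promoter factor M1BP, was in 32 Ubx-private regions (6.93%, 4.79 to 9.64%), 2.00% of Hth-private and 2.06% of shared Ubx regions, the higher in Ubx-private regions on 5 of 5 arms against both. All tiles gave 0.201%. AGATAA, the GATA word, differed little, with 13.2 to 15.2% over the 4 classes. A match says that the letters are there, and does not show that a factor bound them.

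**Figure D5:**
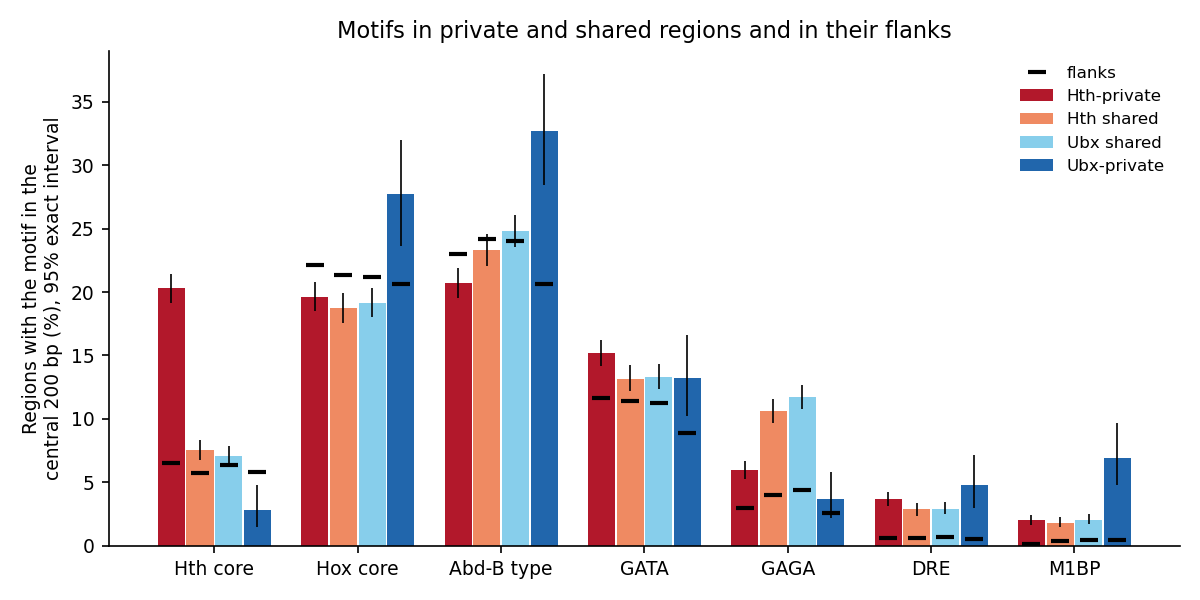
Bars give the percent of regions with each motif in the central 200 bp, with 95% exact intervals, and black marks give the share in windows 1000 bp to either side. The Hth core stands out in Hth-private regions (20.3%), GAGA in the shared regions and M1BP in Ubx-private regions (6.93%).

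Genes near Hth-private regions were many. Of 13945 protein-coding genes, 5325 had a Hth-private region within the gene or 2 kb of it (38.2%), 877 a Ubx-private region (6.29%) and 5031 a shared Hth region (36.1%). Gene length moved with these shares, which were 64.4, 11.5 and 59.1% for the 1013 genes of 20 kb or more and 33.1, 5.32 and 29.1% for genes under 5 kb. The most Hth-private regions were at bun (19 regions over 91.1 kb), a TSC22 family gene, and kirre (18), and then at Btk, a Tec family kinase, Smr, a corepressor, and Svil, an actin-binding protein, with 12 each. These 5 genes had 5 to 17 shared Hth regions as well. The most Ubx-private regions were 3 at arr, the Wingless co-receptor, which had no Hth-private region, and 3 at toc, and then 2 each at ACXD, Agpat2 and CG12224, first by symbol among several genes with 2.

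Over all genes, too, Hth-private regions outnumbered Ubx-private ones, and the counts over gene lists are a description beside these shares. Of 15 genes of the TALE and Hox group, at a median length of 17.2 kb, 9 had a Hth-private region (60%), 2 a Ubx-private region (13.3%) and 8 a shared one (53.3%). The shares over all genes were 38.2, 6.29 and 36.1%, and over genes of 20 kb or more 64.4, 11.5 and 59.1%. The gene of the partner, exd, had 3 Hth-private regions and no Ubx region, and the widest of them (556 bp) was a q 1e-2 region centered in the 5′ UTR without a Hth core. The hth gene had 3 Hth-private and 4 shared regions in its 132 kb, and the Ubx gene 1 shared region. Scr had 2 Hth-private regions and no other. The Hox gene lab had 1 Ubx-private region of 277 bp and no Hth region. Antp had 3 Hth-private regions, 3 shared and 1 Ubx-private, and the last was among the strong Ubx regions (q 1e-10) and was bound in Ubx+Hth.

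Among 18 known Hox targets, at a median length of 15.0 kb, 9 had a Hth-private region (50%), 2 a Ubx-private region (11.1%) and 12 a shared one (66.7%). The first share lies between those of all genes (38.2%) and of long genes (64.4%), and the second is close to that of long genes (11.5%). The cell death gene rpr had 1 Hth-private region at q 1e-10 (526 bp) and no Ubx region. Dll and salr also had 1 Hth-private region and no Ubx region, while wg had a single shared region. The knot gene (kn), a wing and hemocyte transcription factor, had 1 Hth-private, 1 Ubx-private and 2 shared regions, and ct had 4, 1 and 4. Neither ovo nor sens had a region. In a list of 9 cell death genes, which repeats rpr and hid, 5 had a Hth-private region (55.6%, all genes 38.2%), none a Ubx-private region (all genes 6.29%) and 6 a shared one (66.7%, all genes 36.1%). Diap1, the caspase inhibitor, had 5 shared regions and 1 Hth-private region.

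Of 17 transcription factor genes of hemocytes, at a median length of 17.9 kb, 14 had a Hth-private region (82.4%, against 38.2% of all and 64.4% of long genes), 2 a Ubx-private region (11.8%, against 6.29 and 11.5%) and 15 a shared one (88.2%, against 36.1 and 59.1%). The GATA factor gene srp had 5 Hth-private and 5 shared regions. Its cofactor gene ush had 8 and 15, the Ets factor gene pnt 9 and 12, and the AP-1 gene kay 5 and 6. The Rel family gene dl had 2 Hth-private regions and no Ubx region, the widest 1223 bp and at q 1e-10. Of 15 genes expressed by hemocytes, at a median length of 9.33 kb, 9 had a Hth-private region (60%), 3 a Ubx-private region (20%) and 11 a shared one (73.3%). The scavenger receptor gene crq had 2 Hth-private regions and no Ubx region, and Pxn, an extracellular peroxidase, 4 Hth-private and 1 Ubx-private region with none shared. The collagen gene vkg had 1 Hth-private region of 1466 bp with 3 Hth cores, 1 Ubx-private region of 322 bp with 2 Hox cores and 5 shared regions. Neither NimC1 nor eater, both phagocytosis receptors, had a region.

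Among genes of 20 kb or more 59.1% had a shared, 64.4% a Hth-private and 11.5% a Ubx-private region. Over all protein-coding genes these shares were 36.1, 38.2 and 6.29%. Of the lists that follow, the Notch, JAK/STAT and Pvr lists hold shorter genes, with median lengths of 13.1, 7.36 and 17.0 kb. All 11 ecdysone response genes that were matched, of 12 listed, had a shared region, 10 a Hth-private (90.9%) and 3 a Ubx-private region (27.3%), at a median length of 60.7 kb. The nuclear receptor gene EcR had 7 Hth-private, 2 Ubx-private and 10 shared regions, and Eip75B 3, 0 and 24. Eip63E, a cyclin-dependent kinase gene, had 10 Hth-private and 2 shared regions. Of 14 Notch pathway genes matched, of 15 listed, 8 had a Hth-private (57.1%), 2 a Ubx-private (14.3%) and 11 a shared region (78.6%), with 9 Hth-private and 11 shared at mam, the coactivator, and 1 Ubx-private and no Hth-private region at the ligand gene Ser. Of 9 JAK/STAT genes 6 (66.7%), 1 (11.1%) and 5 (55.6%) had them, with 8 Hth-private and 7 shared regions at the phosphatase gene Ptp61F and 1 Hth-private and 1 Ubx-private region at the ligand gene upd2. Of 16 genes of the Pvr, FGF and EGF receptor pathways 12 (75%), 3 (18.8%) and 13 (81.2%) had them. The inhibitor gene aos had 6 Hth-private regions, the widest 1727 bp with 3 Hth cores, beside 1 Ubx-private and 1 shared region, whereas Egfr had 1 Ubx-private and 1 shared region and no Hth-private region.

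The 92 ribosomal protein genes were short, with a median of 1.33 kb, yet 59 had a Hth-private region (64.1%), 8 a Ubx-private (8.70%) and 48 a shared region (52.2%), where genes under 5 kb gave 33.1, 5.32 and 29.1%. Of 10 muscle genes, at a median length of 16.8 kb, 6 had a Hth-private region (60%), none a Ubx-private and 3 a shared one (30%). The shares over all genes were 38.2, 6.29 and 36.1%, and over genes of 20 kb or more 64.4, 11.5 and 59.1%. Mef2, the muscle transcription factor, had 3 Hth-private and 5 shared regions, and Act57B, Tm2, up and Mlc2 had none.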

How the data were processed

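The deposited lists hold start and end positions of bound regions, with the line's name and a score of 0. The authors mapped reads to dm6 with Bowtie 1.2.2, ran MACS2 2.1.1.20160309 on each ChIP library with its input as background at both q thresholds, removed plasmid exons and merged overlapping regions of both replicates. The positions were compared with the Release 6 genome of RefSeq and with Ensembl release 115 in Python 3.11.15, numpy 2.4.6 and scipy 1.17.1. bedtools 2.31.1 gave the same number in 8 of 8 overlaps. Functions were tested on simulated regions, with 6 of 6 known answers recovered. Shares carry 95% exact (Clopper-Pearson) binomial intervals. No test between lines was possible without replicate lists, so directions were counted over 5 arms, which are not replicates. Motifs were read on both strands within 100 bp of each center. Members, lists, motifs and widths were chosen with earlier results of these data known. Named regions were the 5 widest of each class, named genes the members of 11 lists and those with most private regions, and sequences those nearest the center of these.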

Additional observations from a re-analysis of the deposited data

How the results depend on the processing

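Leaving out each arm moved none of 9 results beyond its interval (45 of 45 values). The share of Hth regions with a Ubx region was 24.3% with both lists at q 1e-10, 60.1% for Hth at q 1e-10 against Ubx at q 1e-2, 44.1% in 400 bp windows and 65.8% for the 5278 widest Hth regions. The share of Ubx regions with a Hth region was 90.4, 98.2, 76.2 and 75.9% under the corresponding settings. Binding in Ubx+Hth with all 3 lists at q 1e-10 was 16.5% for Hth-private, 66.7% for shared Hth, 65.6% for shared Ubx and 14.8% for Ubx-private regions. For q 1e-10 regions with no region of the other line at q 1e-2 it was 29.5% for Hth and 78.8% for Ubx, and in 400 bp windows 62.2% for shared Hth, 62.7% for shared Ubx and 43.6% for Ubx-private regions. The excess of the Hth core in Hth-private over Ubx-private regions was 25.3 points for those strict regions, 28.7 points in whole regions and 22.6 points in the central 400 bp. The difference of the Hox core was -14.6, -2.01 and -13.1 points under the same settings, and turned to 0.775 points in windows of 38 to 44% GC, a setting chosen after seeing the data. Of 220 genes on the lists, 25 were near a Ubx-private region, against 15 by gene body alone, 44 within 10 kb and 2 for the strict regions. For Hth-private regions the counts were 141, 112, 182 and 94. At the 2 kb setting, 877 of all 13945 protein-coding genes (6.29%) were near a Ubx-private and 5325 (38.2%) near a Hth-private region. Shares over all genes at the other settings are not given here. The causes of these shifts were not tested. An overlap of 50% of the shorter region moved none of the 6 results it was run on. No paired analysis was possible because the replicates of a line were merged before deposit, which also kept any replicate from being left out. Which line binds a private region rests on thresholds, and a weak Ubx site can be missing from the Ubx list.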

Other observations

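Words of promoter and signal factors not described above also varied with position. The DRE word TATCGATA, bound by the proliferation factor DREF, was in 7.76% of Hth-private regions within 500 bp of a transcript start (161 of 2074) and in 0.382% of those farther away, and in 4.71 and 0.658% of shared Hth regions. The AP-1 word TGACTCA was in 3.69% of Hth-private (3.17 to 4.27%), 2.44% of shared Hth and 1.52% of Ubx-private regions, with flanks at 2.02, 2.30 and 1.19%. The words CCGGAAG of Ets factors, AACCACA of Runt factors and ATGCGGG of Gcm differed from their flanks by less than 1 percentage point in Hth-private and in shared regions.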
